A study of Homo sapiens with 8 samples.

Results

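The peaks described here are the N6-methyladenosine (m6A) peaks of human osteosarcoma cells whose annotated transcript region was the 3' UTR and nothing else. They were chosen by the region written beside each peak in the deposited lists, so that a peak reaching across the stop codon into the coding sequence (CDS) was left out. Of 130622 peaks in 4 lists, 31138 (23.8%) met this rule. The cells were the established osteosarcoma lines U2OS and 143B, infected with lentivirus that carried either a control short hairpin RNA (NC) or a hairpin against METTL14 (shMETTL14). In MeRIP-seq, fragments of total RNA bound by an anti-m6A antibody are sequenced and set against an input library of the same cells. Each of the 4 groups had 1 immunoprecipitated library with 1 peak list and 1 input library, and no group had a replicate. The groups are U2OS NC, U2OS shMETTL14, 143B NC and 143B shMETTL14, all lentivirally infected and grown in the same medium. A treatment note common to all samples mentions just the METTL14 hairpin, while the titles and treatment fields separate NC from shMETTL14. Whether the infected cells were pools or single clones is not given in the sources used here.

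METTL14 and METTL3 form the complex that methylates adenosines of messenger RNA within the DRACH sequence context. In mammalian mRNA, m6A is concentrated around the stop codon and in the 3' UTR, the region after the coding sequence that microRNAs and RNA-binding proteins contact. Readers of the YTHDF family and the IGF2BP proteins bind methylated mRNA there and affect its decay, stability and translation. The lists give the place of each peak and the authors' own fold enrichment and p-value for it, and not the level of the mRNA.

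The U2OS NC list held 7355 3' UTR peaks, 22.7% of its peaks (95% interval 22.3 to 23.2). The U2OS shMETTL14 list held 6709, or 22.4% (21.9 to 22.8). In 143B the numbers were 8258 under NC and 8816 under shMETTL14, 25.0% of the list in both cases (24.5 to 25.4 and 24.6 to 25.5). The share thus differed more between the lines than between the hairpins of a line. All intervals are exact Clopper-Pearson intervals that cover counting error only, and several peaks of a gene are not independent observations.

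**Figure D1:**
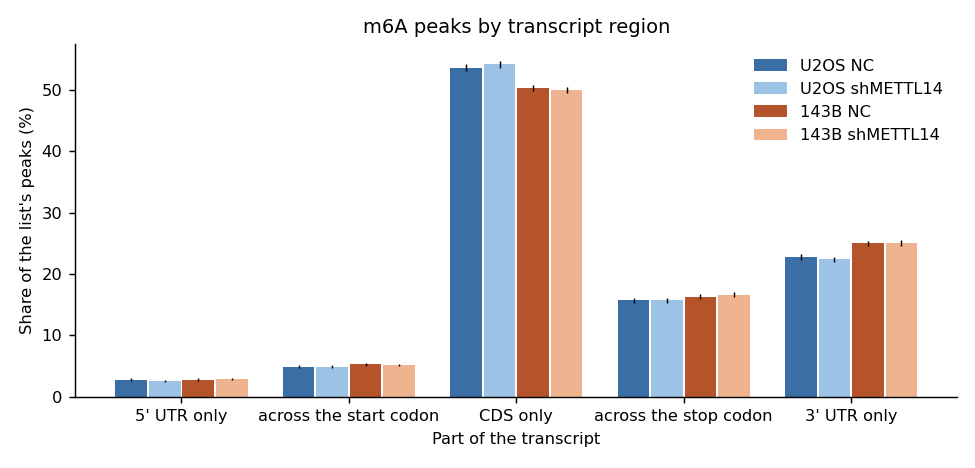
Share of each list's peaks (y axis, percent) by the part of the transcript they lie in (x axis), with 1 bar per list and 95% counting intervals. Peaks within the CDS only were the most frequent, and 3' UTR peaks came next at 22.4% to 25.0%, above peaks across the stop codon.

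A locus was listed for each annotated isoform, so the 3' UTR peaks were joined where they overlapped on the same strand. This gave 3940 sites in U2OS NC, 3628 in U2OS shMETTL14, 4362 in 143B NC and 4738 in 143B shMETTL14, with 1.85 to 1.89 listed peaks per site. The sites lay in 2904, 2732, 3189 and 3412 genes in the same order, which was 45.2%, 44.8%, 48.2% and 49.3% of the genes with any peak. Across the lists, 5102 of 8758 genes with a peak (58.3%) had one confined to the 3' UTR at least once, and 1414 of these (27.7%) had one in all 4 lists. Most genes carried a single 3' UTR site, from 72.4% of genes in 143B shMETTL14 to 76.3% in U2OS shMETTL14, and 60 to 101 genes per list carried 4 or more. The same stretch can be 3' UTR in one isoform and coding in another: 89.2% to 90.2% of the peaks overlapped no peak of another region in their own list, while 7.41% to 7.76% also overlapped a peak listed across a stop codon.

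The 3' UTR peaks were narrower at the median than other peaks pooled, and nearly all were unspliced. The median spliced width was 180, 179, 178 and 180 nt in the lists U2OS NC, U2OS shMETTL14, 143B NC and 143B shMETTL14. The quartiles were 118 and 241 nt, 91.0 and 241 nt, 91.0 and 240 nt, and 120 and 271 nt in this order, which is used below for any 4 values given without their lists. All other peaks of the same lists had medians of 236, 211, 226 and 241 nt, and peaks across the stop codon 328, 300, 327 and 352 nt. Peaks within the CDS had medians of 209, 210, 208 and 211 nt, and peaks within the 5' UTR were narrower still, at 150, 149, 150 and 151 nt. A single block without a splice junction made up 98.8% to 99.0% of the 3' UTR peaks, against 48.2% to 53.7% of peaks within the CDS. Peaks of at most 61 nt were 12.5% to 13.7% of the 3' UTR peaks, and peaks of 500 nt or more were 4.36% to 4.72% in 3 lists and 7.10% in 143B shMETTL14.

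The widest 3' UTR peak of every list lay in C22orf46 on chromosome 22, a gene known by its open reading frame name alone. It spanned 2368 nt in both U2OS lists (chr22:42090125-42092492, plus strand, hg19, under NC) and 2188 and 2458 nt in the 143B lists, with fold enrichments of 8.86, 7.24, 10.7 and 8.86 within those lists. RPL7L1, a relative of ribosomal protein L7, came next in U2OS shMETTL14 with 1284 nt and followed DST in U2OS NC with 1314 nt; DST encodes the cytoskeletal linker dystonin and had 1470 nt. In 143B NC the wide peaks included PEG10, an imprinted gene derived from a retrotransposon (1319 nt), and ZFP36L1, a protein that binds AU-rich elements and promotes mRNA decay (1279 nt). In 143B shMETTL14 they included IGF2, the growth factor whose mRNA gave the IGF2BP readers their name (1584 nt). None of the 5 widest peaks of any list was without a partner in the other list of its line.

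**Figure D2:**
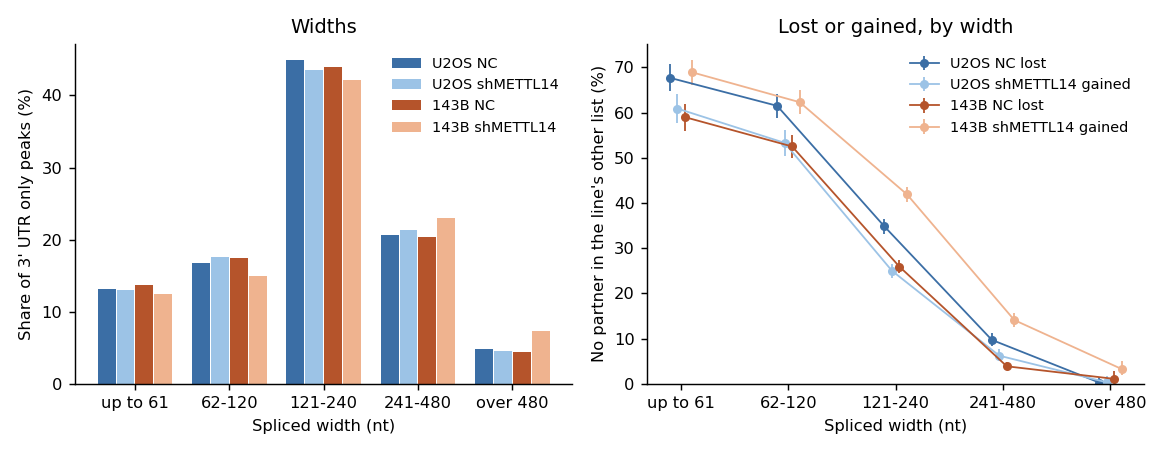
Left, share of 3' UTR peaks (y axis, percent) by spliced width in nt (x axis) for the 4 lists. Right, share of the peaks of each width with no partner in the other list of the same line, with 95% counting intervals: it lay between 59.0% and 68.9% for peaks of up to 61 nt and between 0.285% and 3.27% above 480 nt. Peaks of other regions, not drawn, fell with width too, with 52.8% to 68.3% and 0.0291% to 0.985% in these classes.

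Transcripts with 3' UTR peaks were longer at the median than those with other peaks pooled, by less against peaks within the CDS. The length that the lists give for each transcript (RNA_length) had a median over transcripts with a 3' UTR peak of 3304, 3362, 3120 and 3142 nt. Transcripts with other peaks had medians of 2635, 2614, 2604 and 2569 nt, those with peaks within the CDS 2988, 2968, 3000 and 2982 nt, and those with peaks within the 5' UTR 2791, 2688, 3141 and 2916 nt. In 143B NC the 5' UTR value was thus the higher one. When each list was divided at the quartiles of RNA_length, 13.2% to 17.1% of the peaks on the shortest transcripts were 3' UTR peaks, against 23.1% to 27.2% and 25.0% to 27.2% in the 2 middle classes and 24.3% to 27.3% on the longest. The length of the UTR itself was not analysed here.

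Within each list the 3' UTR peaks had weaker p-values than the rest but no lower fold enrichment. The median of the authors' -log10 p-value was 4.44, 4.46, 4.22 and 4.67 for 3' UTR peaks and 6.01, 6.28, 5.67 and 7.10 for other peaks. The median fold enrichment was 3.69, 3.78, 3.91 and 3.69 for 3' UTR peaks and 3.57, 3.48, 3.78 and 3.55 for others. Peaks within the 5' UTR only went further in both measures, with median -log10 p-values of 4.13, 4.09, 3.90 and 4.23 and fold enrichments of 4.28, 4.36, 4.75 and 4.05. In U2OS NC 32.6% of the 3' UTR peaks fell above the upper quartile of the list's p-values and 13.0% below the lower quartile. Fold enrichments are compared within a list only, and the read depth behind them is unknown because the lists carry no counts.

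METTL14, the gene targeted by the hairpin, had 1 peak confined to its 3' UTR in U2OS NC, 1 in U2OS shMETTL14, 1 in 143B NC and 0 in 143B shMETTL14. The U2OS NC peak (chr4:119631744-119631834, plus strand, fold enrichment 3.48) did not overlap the U2OS shMETTL14 peak (chr4:119632222-119632402, fold enrichment 18.5). The latter overlapped the 143B NC peak (chr4:119632163-119632342, fold enrichment 2.45). METTL14 peaks of any region numbered 5 in U2OS NC, 2 in U2OS shMETTL14, 1 in 143B NC and 4 in 143B shMETTL14. Peak lists do not measure the METTL14 transcript, so the knockdown could not be checked with them.

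The design asks which peaks differ between NC and shMETTL14. A peak was taken as shared when its spliced blocks overlapped any peak of the other list of the line by 1 bp or more on their strand, whatever that peak's region. Peaks of an NC list without such a partner are called lost, and those of an shMETTL14 list gained. Both words describe the lists, and with 1 list per group no difference could be tested.

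In U2OS, 2705 of 7355 3' UTR peaks (36.8%, 35.7 to 37.9) were lost, where 26.9% of all peaks in the list were. In the other direction 1981 of 6709 (29.5%, 28.4 to 30.6) were gained, where 20.9% of all peaks were. Peaks across the stop codon were lost in 11.4% and gained in 9.26% of cases, and peaks within the CDS in 27.3% and 21.0%. Peaks within the 5' UTR only, a smaller group, stood at 39.8% lost and 30.6% gained. The number of 3' UTR peaks in shMETTL14 was 0.912 of that in NC, and the length they covered went from 842 kb to 767 kb. A 3' UTR peak was present under both hairpins in 2032 genes, which was 70.0% of the NC genes and 74.4% of the shMETTL14 genes, while 872 genes had one under NC alone and 700 under shMETTL14 alone.

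In 143B the balance was the other way. Here 2436 of 8258 3' UTR peaks (29.5%, 28.5 to 30.5) were lost, with 20.7% for all peaks, and 3446 of 8816 (39.1%, 38.1 to 40.1) were gained, with 27.3% for all peaks. Peaks across the stop codon were lost in 8.81% and gained in 10.5% of cases, CDS peaks in 19.7% and 27.7%, and 5' UTR peaks in 39.5% and 40.2%. The number of 3' UTR peaks in shMETTL14 was 1.07 times that in NC, and the covered length went from 915 kb to 1124 kb. Both hairpins had a 3' UTR peak in 2377 genes (74.5% of NC genes, 69.7% of shMETTL14 genes), 812 genes had one under NC alone and 1035 under shMETTL14 alone. Lost and gained shares were thus both higher for 3' UTR peaks than for all peaks in either line, and the larger of the pair was the loss in U2OS and the gain in 143B. When both 143B lists were cut to peaks above their median fold enrichment, 45.6% were lost and 52.5% gained. Peaks of other regions then had 30.3% lost and 33.2% gained. This cut also removes possible partners. Against the full shMETTL14 list, 35.9% and 26.0% of 143B NC 3' UTR peaks were lost in the 2 highest quartile classes of fold enrichment. With equal numbers of peaks per line, taken by lowest p-value, the U2OS shares came to 32.7% lost (31.6 to 33.9) and 31.7% gained (30.5 to 32.8), with overlapping intervals, and the 143B shares to 31.1% and 35.5%.

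Whether a 3' UTR peak had a partner moved closely with its p-value. Each list was divided at its quartiles of p-value into 4 classes, from the lowest p-values to the highest. In U2OS NC, 0.209%, 11.8%, 42.3% and 63.8% of the 3' UTR peaks of these classes were lost. The other peaks of the same classes were lost in 0.421%, 9.50%, 35.0% and 58.4% of cases. For U2OS gains the shares were 0 of 788 (interval up to 0.467%), 6.45%, 27.6% and 56.4% for 3' UTR peaks and 0.209%, 7.07%, 24.9% and 48.4% for others. For 143B losses they were 0.747%, 10.3%, 30.0% and 53.6% against 0.458%, 6.43%, 24.6% and 46.4%. For 143B gains they were 1.41%, 14.8%, 43.3% and 64.4% against 0.274%, 10.2%, 34.9% and 57.9%. In the 2 classes with the highest p-values the 3' UTR share was above that of other peaks in all 4 lists, by less than in the lists as a whole. The part of the p-value in the difference between regions was not tested further.

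**Figure D3:**
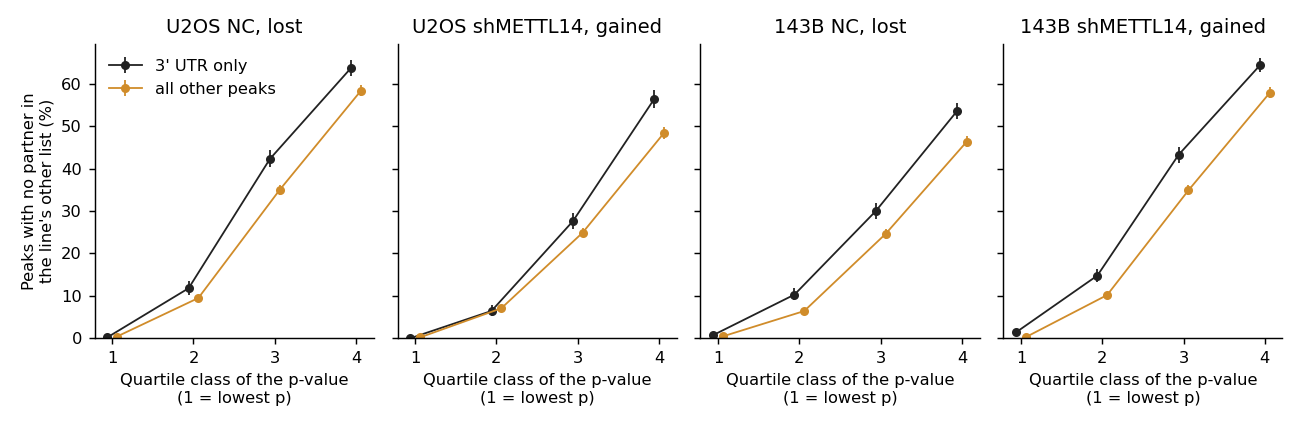
Share of peaks with no partner in the other list of the line (y axis, percent, 95% counting intervals) by quartile class of the list's p-values (x axis, class 1 holding the lowest p), for 3' UTR peaks and all other peaks. In class 4 the 3' UTR points lie at 63.8%, 56.4%, 53.6% and 64.4%, each above the other peaks.

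Lost and gained 3' UTR peaks were also narrower than kept ones. The median width was 120 nt for lost and 210 nt for kept peaks in U2OS NC, and 119 nt and 206 nt in 143B NC. Gained peaks had a median of 91.0 nt in U2OS shMETTL14 and 121 nt in 143B shMETTL14, against 208 nt and 234 nt for the kept peaks. Their fold enrichment was not lower: the medians for lost or gained against kept peaks were 3.72 and 3.68, 4.36 and 3.63, 4.10 and 3.80, and 3.88 and 3.64 in the order U2OS NC, U2OS shMETTL14, 143B NC, 143B shMETTL14. Among gained peaks the upper quartile of fold enrichment reached 10.9 in U2OS and 8.86 in 143B, while kept peaks of those lists had 5.65 and 5.54. The share without a partner was also higher on longer transcripts, from 32.5% below the lower quartile of RNA_length to 40.0% above the upper one for U2OS losses, and from 27.6% to 45.6% for 143B gains. Over all peaks it was also higher there, from 20.1% to 29.4% and from 19.9% to 30.4%. Narrow peaks of other regions lacked a partner more often as well. In U2OS NC 66.2% of those up to 61 nt were lost, and 0.456% of those above 480 nt.

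The 3' UTR peaks of highest fold enrichment lost in U2OS lay in genes of several kinds. TIFA, an adaptor that activates NF-kappaB through TRAF6, had 1 such peak in U2OS NC, 0 in U2OS shMETTL14, 1 in 143B NC and 1 in 143B shMETTL14, and the lost one (chr4:113197253-113197612, minus strand) was 360 nt wide with fold enrichment 27.0. The transcription factor gene GATA4 had 2, 0, 6 and 4 3' UTR peaks in the same order (fold enrichment of the lost peak 25.7). TCTN1, of the ciliary transition zone, had 2, 0, 2 and 2 (25.7), RPUSD3, a mitochondrial pseudouridine synthase, 2, 0, 2 and 2 (24.4), and the sphingosine-1-phosphate receptor gene S1PR5 4, 0, 2 and 4 (24.4). In these 5 genes the lost peak overlapped a peak in both 143B lists, so U2OS shMETTL14 was the list without it. SYT17, of the synaptotagmin family, and WBSCR17, of the GalNAc transferase family, had 1, 0, 0 and 0, with fold enrichments of 25.7 and 23.1. MED29, a Mediator subunit, had 3, 2, 3 and 1 (23.1), FLRT2, a cell adhesion protein, 2, 0, 1 and 2 (23.1), and the transcription factor gene TFAP4 1, 0, 0 and 1 (23.1). Here and in the rankings below, some genes of a list shared both fold enrichment and p-value. Examples were GATA4 and TCTN1 lost in U2OS, and ACADSB, BTBD19, MPPE1 and SEMA6A lost in 143B. The lists carry no read counts, so whether such repeated values rest on few reads is unknown.

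Gained in U2OS were TSNAX, encoding the partner of the nucleic acid-binding protein translin, and MDM4, which is related to MDM2, at fold enrichment 28.3 each. The TSNAX peak (chr1:231701079-231701615, plus strand) was 537 nt wide, and that gene had 0, 1, 2 and 1 3' UTR peaks over the lists. MDM4 had 5, 7, 9 and 8, so its gained peak (chr1:204522002-204522182) was 1 of several, on transcripts of up to 10073 nt. The NF-kappaB subunit gene REL had 4, 10, 2 and 8 3' UTR peaks, and its gained U2OS peak had fold enrichment 25.1. MTDH, encoding metadherin, had 1, 2, 1 and 1 (26.1), SYAP1 0, 1, 1 and 0 (26.1), and NT5C2, a purine nucleotidase, 0, 2, 3 and 2 (25.1). The mitochondrial serine transporter gene SFXN1 had 2, 2, 3 and 3 (24.0). QRSL1, needed for mitochondrial glutaminyl-tRNA, had 0, 1, 0 and 1, GID4, a substrate receptor of an E3 ligase, 0, 1, 1 and 2, and RGS12, a regulator of G protein signalling, 0, 3, 2 and 3, at 24.0 each.

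Lost in 143B at the highest fold enrichment were TPGS2, a subunit of the tubulin polyglutamylase complex (31.3), and RNF7, a RING component of cullin ligases (30.0). TPGS2 had 1, 0, 4 and 3 3' UTR peaks over the lists and RNF7 0, 0, 4 and 1. AGAP3, encoding a GTPase-activating protein for Arf, had 0, 3, 5 and 0 (27.4). Its 3' UTR peaks were thus listed under shMETTL14 but not NC in U2OS, and the opposite in 143B. AGAP3 peaks of any region numbered 3, 3, 6 and 3, and the lost 143B peak overlapped no peak of the other lists. SEMA6A, a transmembrane semaphorin, had 5, 0, 2 and 0, with 28, 0, 6 and 0 peaks of any region, so that no SEMA6A peak was listed under shMETTL14 in either line. The others were DHFRL1, a copy of the dihydrofolate reductase gene whose reads may be shared with its parent (28.7), ACADSB, an acyl-CoA dehydrogenase (22.2), BTBD19 (22.2), MPPE1, of GPI anchor remodelling (22.2), and ZFP36L1 (20.9).

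Among the peaks gained in 143B, the highest fold enrichment was in CHP1. This gene, encoding a partner of sodium-proton exchangers, gained a peak of 359 nt at chr15:41573028-41573386 (plus strand, fold enrichment 39.9) and had 3, 2, 1 and 2 3' UTR peaks over the lists. LIAS, the lipoic acid synthase, had 2, 3, 0 and 1 (38.8), and the gained peak overlapped peaks of both U2OS lists. The same was true of SUGP2, a splicing factor-like protein with 2, 2, 0 and 2 (36.6), C2orf15 with 1, 1, 0 and 1 (35.5), and LRRC8B, a subunit of volume-regulated anion channels, with 0, 0, 0 and 1 (34.4). In LRRC8B the U2OS partners were peaks not listed as 3' UTR only. EHD2, an ATPase of caveolae, had 4, 4, 3 and 2 (34.4), GNE, which starts sialic acid synthesis, 0, 2, 7 and 5 (34.4), the importin gene KPNA6 4, 6, 5 and 6 (32.1), and the calcium channel gene ORAI2 12, 11, 9 and 17 (32.1). The gained peaks of CHP1, EHD2, KPNA6 and ORAI2 also overlapped peaks of both U2OS lists, while those of GNE and LRRC57 were present in 2 lists. LRRC57 had 3 3' UTR peaks in every list, yet its peak at chr15:42835167-42835494 (minus strand, 38.8) was gained in 143B. A neighbouring LRRC57 site, chr15:42834900-42835078, was present in both NC lists and neither shMETTL14 list, so an equal count of peaks did not mean equal places.

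A lost 3' UTR peak did not always leave its gene without peaks. Of the peaks lost in U2OS, 37.9% lay in genes with no peak at all in the shMETTL14 list, 21.9% in genes that had peaks in other regions only, and 40.2% in genes that had another 3' UTR peak in that list. For peaks lost in 143B these shares were 34.0%, 20.5% and 45.4%. For gained peaks, judged against the NC list, they were 34.5%, 21.5% and 44.0% in U2OS and 28.2%, 24.8% and 47.0% in 143B. The same split was not made for peaks of other regions, so whether these shares are particular to 3' UTR peaks is unknown. Where a peak was kept, its partner was a 3' UTR peak too in 91.6% to 95.0% of cases and lay on the same transcript in 96.7% to 97.5%. A partner across the stop codon with no 3' UTR partner was found for 4.73% of kept peaks in U2OS NC, 6.37% in U2OS shMETTL14, 8.23% in 143B NC and 5.53% in 143B shMETTL14. STAU1, encoding the double-stranded RNA-binding protein Staufen and named here after its values were seen, shows such a case. It had 0 3' UTR peaks under NC and 7 under shMETTL14 in both lines, and all 7 overlapped an NC peak that reached across the stop codon, so none counted as gained. In U2OS the 7 NC peaks across the stop codon were 744 to 750 nt wide, while under shMETTL14 the same stretch was listed as 7 3' UTR peaks of 298 to 301 nt and 7 peaks across the stop codon of 239 to 269 nt.

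Few 3' UTR peaks accompanied a peak at the stop codon of their own transcript. Such a companion existed for 14.2% in U2OS NC, 13.6% in U2OS shMETTL14, 13.1% in 143B NC and 14.5% in 143B shMETTL14. The median distance along the genome between the pair was 656, 684, 417 and 627 nt, and in 30.2% to 38.9% it was over 1000 nt. Peaks with a companion were not lost less: the share was 40.7% (37.7 to 43.7) with and 36.1% (35.0 to 37.3) without in U2OS NC, and 29.5% in both classes in 143B NC. Gained shares were 30.8% with and 29.3% without in U2OS, and 45.5% (42.7 to 48.3) with and 38.0% (36.9 to 39.1) without in 143B. Between 43.4% and 46.5% of 3' UTR peaks lay in genes that had no peak in any other region of that list.

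Across all 4 lists the 3' UTR peaks joined into 7920 sites, and a list was counted as holding a site when any of its peaks overlapped it. All 4 lists held 1837 sites (23.2%, 22.3 to 24.1), where 30.1% of sites made in the same way from all peaks were in 4 lists. With the peaks above each list's median fold enrichment alone, 13.8% of 3' UTR sites were in all 4. A single list held 3248 (41.0%), 2 lists 1680 (21.2%) and 3 lists 1155 (14.6%). The sites of 1 list were 1164 in 143B shMETTL14, 892 in 143B NC, 721 in U2OS NC and 471 in U2OS shMETTL14, the same order as the sizes of the lists.

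**Figure D4:**
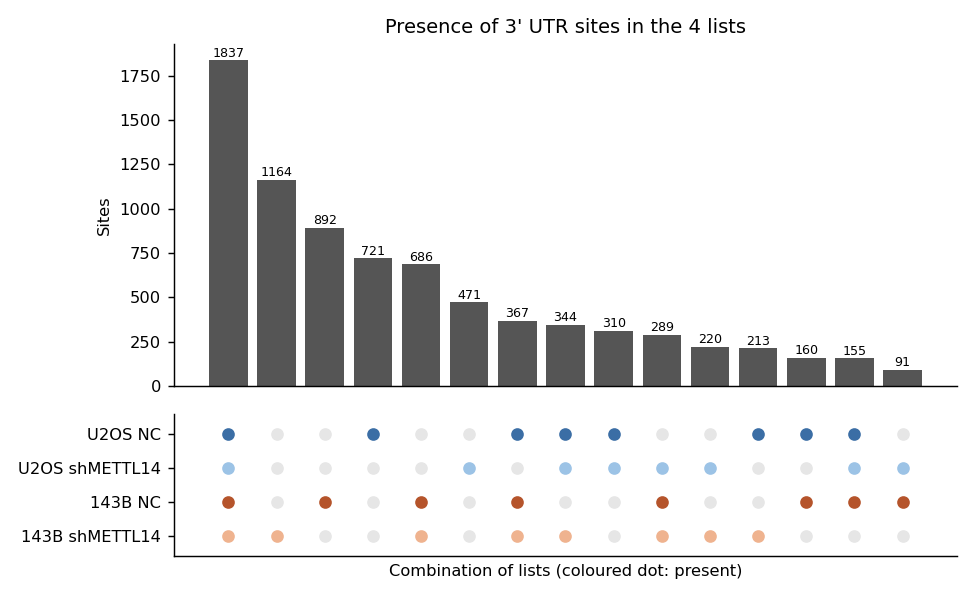
Number of 3' UTR sites (y axis) for each combination of lists that hold them (columns; coloured dots below mark the lists). Presence in all 4 lists (1837 sites) was the most frequent combination, and gain in U2OS with loss in 143B (91 sites) the least.

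Sites shared by all lists with high fold enrichment in each were led by MAP3K13, a kinase of the JNK pathway (chr3:185009600-185010336, plus strand), with 20.5 in U2OS NC, 29.4 in U2OS shMETTL14, 19.6 in 143B NC and 43.2 in 143B shMETTL14. OPA3, linked to optic atrophy, had 24.4, 28.3, 18.3 and 35.5, and ABI2, a member of the WAVE actin regulatory complex, 38.5, 21.8, 18.3 and 28.8. PCYT1A, an enzyme of phosphatidylcholine synthesis, had 21.8, 21.8, 19.6 and 25.5, and PQLC2, a lysosomal amino acid exporter, 18.0, 23.6, 28.7 and 21.3. The list went on with MTG2, TNFAIP8L1, UGGT1 and WIPF2, whose lowest value in any list was 14.3. Each value ranks a site within its own list and gives no change between lists.

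Of the 7920 sites, 160 (2.02%) were lost in both lines, beside 1.92% of sites made from all peaks, and 220 (2.78%) were gained in both, beside 2.25%. The lost ones were led by NIPAL1, a magnesium transporter-like gene, with fold enrichments of 12.8 in U2OS NC and 17.0 in 143B NC. LRRC57 followed with 12.8 and 15.7, CALML4, a calmodulin-like gene, with 14.1 and 8.69, TMEM33 with 8.35 and 13.7, and SLC33A1, an acetyl-CoA transporter, with 8.35 and 13.0. The gained ones were led by SFXN1 (chr5:174955911-174956536, plus strand), with 24.0 in U2OS shMETTL14 and 29.9 in 143B shMETTL14. SOWAHC followed with 24.0 and 23.3, CYP51A1, the lanosterol demethylase of cholesterol synthesis, with 21.8 and 26.0, PHAX, an snRNA export adaptor, with 19.6 and 25.5, and MRP63, a mitochondrial ribosomal protein, with 20.7 and 21.1. Both shares were near those of sites from all peaks.

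At some sites the lists moved in opposite ways in the lines. Sites lost in U2OS and gained in 143B numbered 213 (2.69%, beside 2.43% of sites from all peaks) and included GAB2, a docking protein of growth factor signalling (20.5 in U2OS NC, 19.9 in 143B shMETTL14). POLR1A, the largest subunit of RNA polymerase I, had 18.0 and 21.1, and TIRAP, a Toll-like receptor adaptor, 20.5 and 15.0. PAPLN, encoding papilin, had 12 3' UTR peaks in U2OS NC and 4 under U2OS shMETTL14, but 5 in 143B NC and 15 in 143B shMETTL14. Sites gained in U2OS and lost in 143B numbered 91 (1.15%, beside 1.05%), among them FMNL3, a formin, BTBD7 and PARD6B, a cell polarity protein. The difference between the lines was not tested.

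Some sites followed the line and not the hairpin. Both U2OS lists and neither 143B list held 310 sites (3.91%, beside 4.33% of sites from all peaks). These were led by ADM2, encoding adrenomedullin 2, with 30.8 under NC and 40.3 under shMETTL14, and QPRT, an enzyme of NAD synthesis, with 24.4 and 37.0. Both 143B lists and neither U2OS list held 686 (8.66%, beside 7.26%), led by FAM213A with 26.1 and 27.7. Among them was CD68, a lysosomal glycoprotein used as a macrophage marker, with 14.1 and 68.1. Between the NC lists, 60.4% of U2OS 3' UTR peaks (59.2 to 61.5) had a 143B partner, against 69.8% of all U2OS NC peaks, and 55.3% of 143B 3' UTR peaks had a U2OS partner, against 68.6% of all. Under shMETTL14 the shares were 72.5% for U2OS and 52.9% for 143B, against 78.0% and 65.4% of all peaks. Counted by peak, 43.4%, 48.0%, 39.4% and 35.2% of the 3' UTR peaks of the lists were present in all 4, against 56.2%, 60.4%, 55.0% and 51.3% of all peaks.

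A few genes collected many 3' UTR sites, most of them on very long transcripts. MDM4 had 15 sites in the union of the lists, of which 2 were in all 4 lists and 7 in a single one, on transcripts of up to 10073 nt. RPAP2, an RNA polymerase II phosphatase, also had 15, with 1 in all lists and 11 in a single one, on transcripts of up to 16993 nt. DST had 12, of which 11 were held by U2OS NC, 7 by U2OS shMETTL14 and 4 by each 143B list. CACNG8, a subunit associated with calcium channels and AMPA receptors, had 11, with 1 and 2 in the U2OS lists and 9 and 10 in the 143B lists. PEX26, of the peroxisomal import machinery, had 10, of which 1, 0, 4 and 9 were held in the order of the lists. SLFN5, of the interferon-responsive Schlafen family, had 10 held in the pattern 8, 3, 4 and 2. CFLAR, an inhibitor of caspase-8 activation, and the transcription factor gene FOXK1 had 10 as well, and ITPRIPL2 had 9. CEP78, DFFA and MTR had 8 each.

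Named gene groups were described by how many of their 3' UTR peaks were lost or gained, read against the shares over all 3' UTR peaks (36.8% and 29.5% in U2OS, 29.5% and 39.1% in 143B). Members beyond the strongest ones were picked for description after their values were seen. Among m6A writers, erasers and readers, 16 of 26 genes had a 3' UTR peak in any list. Such peaks were 18.0% of the group's peaks, beside 23.8% over all genes. In U2OS 3 of 16 were lost and 5 of 20 gained, and in 143B 3 of 17 were lost and 9 of 26 gained. The reader IGF2BP2 had 5, 6, 6 and 10 3' UTR peaks and all had a partner. The demethylase FTO had 4, 6, 0 and 3, and all 3 of 143B were gained, while the demethylase ALKBH5 had 1, 0, 3 and 2. WTAP, of the writer complex, had 1, 0, 0 and 0.

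Proteins that act on 3' UTRs had 3' UTR peaks of their own. In the microRNA pathway and mRNA decay group 14 of 35 peaks were lost and 12 of 30 gained in U2OS, and 7 of 29 were lost and 19 of 35 gained in 143B. The GW182 family, which links Argonaute to deadenylation, varied by member: TNRC6A had 4, 0, 0 and 2 3' UTR peaks, TNRC6B 0, 3, 6 and 1, and TNRC6C 2, 4, 4 and 0. The Argonaute gene AGO1 had 3, 0, 0 and 2, while AGO2 had 2 in every list and none of them was lost or gained. Among RNA-binding proteins of the 3' UTR 13 of 39 were lost and 6 of 37 gained in U2OS, and 9 of 37 and 7 of 40 in 143B. FXR1, a relative of the fragile X protein, had 6, 0, 4 and 4, and PUM2, which binds Pumilio elements, 6, 3, 6 and 6 with none lost or gained. Cleavage and polyadenylation factors had few, 40 of 451 peaks (8.87%), beside 23.8% over all genes. In U2OS 0 of 7 were lost (interval up to 41.0%) and 3 of 7 gained (9.90 to 81.6%). In 143B 2 of 10 were lost and 5 of 16 gained.

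In genes of apoptosis and its control, 251 of 606 peaks (41.4%) were 3' UTR peaks, beside 23.8% over all genes. These 251 peaks joined into 62 sites, and no enrichment was tested. In U2OS 24 of 64 were lost and 12 of 45 gained, and in 143B 10 of 59 were lost and 37 of 83 gained. The ubiquitin ligase gene MDM2 had 17, 16, 10 and 11 3' UTR peaks, of which 0, 1, 0 and 0 lacked a partner. The initiator caspase gene CASP8 had 11, 0, 4 and 4, and all 11 were lost in U2OS. APAF1, which assembles the apoptosome, had 0, 0, 0 and 11, all gained, at 2 sites. BCL2 had 2, 0, 0 and 5, and XIAP, an inhibitor of caspases, 6, 2, 5 and 8. Peaks of 1 gene in these counts are often the same site on several isoforms: the 11 lost CASP8 peaks were 4 sites.

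TGF-beta and BMP genes had 24 of 48 3' UTR peaks lost and 5 of 32 gained in U2OS, and 8 of 40 lost and 6 of 32 gained in 143B. The type I receptor gene TGFBR1 had 6, 0, 1 and 0, with all 6 and the 1 lost. LTBP1, which stores latent TGF-beta in the matrix, had 7, 0, 0 and 0 at 1 site, and BMPR1A 2, 0, 2 and 1. The signal transducer genes varied. SMAD5 had 2 in every list and SMAD2 0, 2, 2 and 0, all with a partner, while SMAD3 had 6, 5, 9 and 7 with 1, 0, 1 and 1 lacking one. The 3 peaks of SMAD9, listed in 143B NC alone, were lost, and the single peak of SMAD7, listed in U2OS shMETTL14 alone, was gained. SMAD6, which inhibits the pathway, had 2, 2, 0 and 0 with none lost or gained, and the corepressor gene SKI 3, 3, 3 and 2, also with none. In the PI3K, AKT, mTOR and FOXO group 188 of 469 peaks (40.1%) were 3' UTR peaks, beside 23.8% over all genes, and no enrichment was tested. In U2OS 18 of 49 were lost and 4 of 32 gained, and in 143B 14 of 49 and 27 of 58. PIK3R1, the regulatory subunit of PI3K, had 7, 0, 0 and 7, lost in U2OS and gained in 143B. FOXO3 had 5, 5, 4 and 5 with none lost or gained. Among Wnt and Hippo genes 20 of 58 were lost and 16 of 50 gained in U2OS, and 12 of 52 and 22 of 59 in 143B. The Hippo regulator NF2 had 17, 14, 6 and 17. In 143B 4 of the 6 NC peaks were lost and 16 of the 17 shMETTL14 peaks gained. Those 17 were isoform copies of 5 sites, and the gained NF2 peak of highest fold enrichment overlapped peaks of both U2OS lists. The Wnt effector gene CTNNB1 had 4, 3, 4 and 3, with 1 lost in each line.

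**Figure D5:**
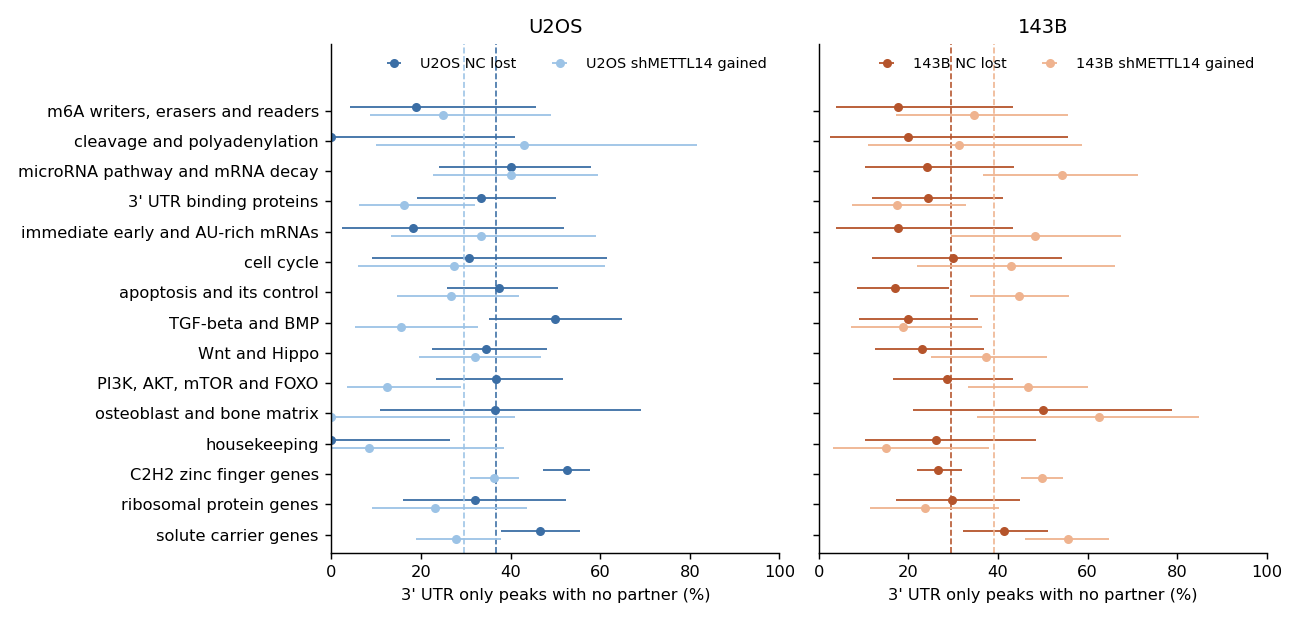
Share of 3' UTR peaks with no partner in the line's other list (x axis, percent, 95% counting intervals) for 15 gene groups, in U2OS and 143B. Dashed lines mark the shares over all 3' UTR peaks, and C2H2 zinc finger genes lie at 52.5% lost in U2OS and 49.9% gained in 143B.

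The large families had more listed peaks and so narrower intervals, but these count isoform copies of 1 site as separate peaks. Solute carrier genes had 44.4% of their peaks in the 3' UTR only (453 of 1020), beside 23.8% over all genes, and no enrichment was tested. Of these peaks 46.6% (37.8 to 55.5) were lost and 27.7% gained in U2OS. In 143B 41.4% were lost and 55.6% (46.1 to 64.7) gained. Joined into sites, 37 of 75 were lost and 15 of 52 gained in U2OS, and 19 of 53 and 29 of 58 in 143B. SLC43A3 had 7 peaks in every list and SLC39A1, a zinc importer, 5 in every list, none lost or gained. SLC29A1, the equilibrative nucleoside transporter, had 0, 0, 0 and 10, all gained at 1 site, and SLC16A3, a lactate exporter, 0, 4, 7 and 0. C2H2 zinc finger genes had 52.5% (47.3 to 57.7) lost and 36.3% gained in U2OS, and 26.7% lost and 49.9% (45.2 to 54.6) gained in 143B. By site these were 121 of 235 and 63 of 180 in U2OS, and 43 of 178 and 125 of 253 in 143B. ZKSCAN1 of this family had 12, 9, 7 and 8. Its strongest kept peak had fold enrichments of 41.1, 41.4 and 52.1 in U2OS NC, U2OS shMETTL14 and 143B shMETTL14. In 143B NC the strongest kept peak of the family was in ZNF107 instead (26.1). Ribosomal protein genes had 9 of 28 lost and 6 of 26 gained in U2OS, and 14 of 47 and 9 of 38 in 143B. Reads of zinc finger and ribosomal protein genes can come from near-identical copies, so their peaks are uncertain.

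Of immediate early and AU-rich mRNAs, 2 of 11 3' UTR peaks were lost and 6 of 18 gained in U2OS, and 3 of 17 and 14 of 29 in 143B. FOSB had 0, 0, 0 and 7, all gained at 1 site with fold enrichment up to 18.8, and VEGFA 0, 2, 3 and 3 with none gained. Cell cycle genes had 4 of 13 lost and 3 of 11 gained in U2OS, and 6 of 20 and 9 of 21 in 143B. CCND2, encoding cyclin D2, had 4, 4, 2 and 1, and CCND1 1, 1, 1 and 2. Housekeeping genes had 0 of 12 lost (interval up to 26.5%) and 1 of 12 gained in U2OS, and 6 of 23 and 3 of 20 in 143B. The elongation factor gene EEF2 had 1 in every list, all with partners.

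Markers of bone cells were partly present. Of 23 osteoblast and bone matrix genes 11 had a peak of any region in any list and 7 had a 3' UTR peak. SP7, ALPL, BGLAP, IBSP and SPP1, which mark maturing osteoblasts, had no peak in any list, while RUNX2, the master regulator of the lineage, had 3, 3, 5 and 3 3' UTR peaks. The RUNX2 peaks were kept except for 2 of 143B NC. All 5 RUNX2 peaks of that list joined into 1 site, which also held kept peaks, so no RUNX2 site was lost there. The vitamin D receptor gene VDR had 2, 2, 3 and 9, of which 0, 0, 3 and 9 had no partner. For other cell types, 1 of 11 blood and immune markers (CD68), 7 of 14 epithelial and neural markers and 4 of 11 fibroblast, muscle and cartilage markers had any peak, and 1, 3 and 2 of them had a 3' UTR peak. PRG4, the lubricin of joint cartilage, had 0, 5, 0 and 5, all gained at 1 site in both lines. A gene can lack a peak because its mRNA is absent or because it is not methylated, and these lists do not tell the cases apart.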

How the data were processed

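The 4 groups of line and hairpin each gave 1 peak list. FastQC 0.11.5, Trimmomatic, HISAT2 and the human build hg19 (GRCh37) are named, per the submitters' processing notes. Which peak caller, threshold and annotation were used, and how deep the libraries were, is not given in the sources used here. Per peak, the lists give blocks, transcript, RNA_length, region, p-value and fold enrichment, per the file headers. The fold enrichment is a linear ratio and the p-value a value per peak; both were deposited by the authors and were used within a list only. Input libraries were not analysed here, and no sequence was read, since no hg19 genome was used here.

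The members, gene groups and comparisons were chosen with earlier results of these data known. Coordinates count from 1. Peaks were shared at an overlap of 1 bp of spliced blocks on the same strand, with 95% Clopper-Pearson intervals and no test across conditions. Named genes are METTL14, for each line the 10 lost and 10 gained genes of highest fold enrichment (autosomes and X), the 10 genes with most sites (with ties), the 10 leading genes of sites in all lists and the 5 leading ones of sites lost or gained in both lines, and from each gene group the strongest 4 lost or gained members and the strongest kept one. Not all genes that the rule names are reported here, and those described from the gene groups were picked with their values known. Any gene outside this rule was chosen after its values were seen, as were the leading genes of the other site classes. Of 18 gene groups, 15 were lists of symbols and 3 name patterns. Alternatives changed the overlap, the peaks used and the unit counted. The overlap code was tested by removing whole 3' UTR sites from the U2OS NC list, and it recovered the removed peaks. This checks the code alone, because shifted or resized peaks were not simulated. Python 3.11.15, numpy 2.4.6, pandas 2.3.3, scipy 1.17.1 and matplotlib 3.10.9 were used.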

Additional observations from a re-analysis of the deposited data

Results flagged for a closer look

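The 2 lines moved in opposite directions between NC and shMETTL14 in the number of 3' UTR peaks, the genes that held them and the length they covered. The shMETTL14 list minus the NC list was -646 peaks in U2OS and 558 peaks in 143B. For genes with a 3' UTR peak the differences were -172 and 223, and for the length covered -75.0 kb and 209 kb. The share of the list in 3' UTR peaks did not do so, at 22.7% and 22.4% in U2OS and 25.0% in both 143B lists. At the level of sites, 213 were lost in U2OS and gained in 143B, and 91 were gained in U2OS and lost in 143B. The difference between the lines was not tested, since each group has 1 list. Peaks of other regions moved in the same directions, with 0.931 times as many in U2OS shMETTL14 as in NC and 1.06 times as many in 143B, and read depth could not be compared.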

How the results depend on the processing

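No paired analysis was possible because each group has 1 list and the results come from no test, and for the same reason no list could be left out. Shares are given as U2OS lost, U2OS gained, 143B lost and 143B gained (36.8%, 29.5%, 29.5% and 39.1% as reported). Overlap of 50% of the shorter peak gave 39.9%, 32.8%, 33.3% and 41.9%, and partners within 100 bp 33.3%, 26.1%, 25.3% and 35.3%. The part of each list above its median fold enrichment gave 47.4%, 43.2%, 45.6% and 52.5%, and peaks with p-values at or below the list median 31.3%, 20.9%, 26.5% and 30.7%. In both settings the partner list was cut in the same way. A partner also required to be a 3' UTR peak gave 39.9%, 34.1%, 35.4% and 42.5%, and 1 transcript per gene 38.8%, 32.1%, 30.7% and 42.4%. Counting sites gave 37.7%, 31.3%, 30.1% and 41.0%. Among alternatives chosen after seeing the data, equal numbers of peaks by lowest p-value gave 32.7%, 31.7%, 31.1% and 35.5%, and peaks overlapping no other region in their list 38.3%, 30.9%, 31.0% and 41.3%. Under each of these settings the loss exceeded the gain in U2OS and the gain exceeded the loss in 143B, but with equal numbers of peaks the U2OS intervals overlapped (31.6 to 33.9 and 30.5 to 32.8). Peaks of other regions gave 35.0%, 30.0%, 30.3% and 33.2% above the median fold enrichment and 17.5%, 13.0%, 14.5% and 19.4% for the lower p-values. U2OS NC peaks with a 143B NC partner (60.4%) became 57.1% at 50% overlap, 63.2% within 100 bp and 46.4% above the median fold enrichment. Sites in all 4 lists (23.2%) became 21.3%, 26.0% and 13.8% under those settings and 24.3% for the lower p-values. The share of peaks in the 3' UTR, in the order U2OS NC, U2OS shMETTL14, 143B NC and 143B shMETTL14, became 23.7%, 24.5%, 25.7% and 26.1% above the median fold enrichment, 16.4%, 15.3%, 18.1% and 17.5% for the lower p-values, 29.2%, 29.2%, 31.4% and 32.5% by sites, and 30.5%, 30.5%, 32.8% and 33.8% with 1 transcript per gene. The median width moved to 181 nt (U2OS NC), 180 nt (143B NC) and 210 nt (143B shMETTL14) above the median fold enrichment, to 180 nt (143B NC) and 181 nt (143B shMETTL14) by sites, and to 151 nt in 143B NC with 1 transcript per gene. Of 72 values under alternatives, 9 stayed within the counting interval or spread and 63 moved beyond it; the cause was not tested. Depth is unknown and limits what an absent peak can mean.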

Other observations

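A U2OS NC 3' UTR peak had a partner more often in the 143B shMETTL14 list (67.4%, 66.3 to 68.4) than in the shMETTL14 list of its own line (63.2%, 62.1 to 64.3), and in 60.4% of cases in 143B NC. All U2OS NC peaks gave the same order, with 74.6%, 73.1% and 69.8%. U2OS shMETTL14 3' UTR peaks had a partner in 72.5% of cases in 143B shMETTL14, 70.5% in U2OS NC and 63.8% in 143B NC, while over all peaks of that list U2OS NC came first (79.1%, against 78.0% in 143B shMETTL14 and 72.1% in 143B NC). In 143B the own line came first: 143B NC peaks had a partner in 70.5% of cases in 143B shMETTL14, and in 55.3% and 52.6% in U2OS NC and shMETTL14. The 143B shMETTL14 peaks had one in 60.9% of cases in 143B NC, against 53.7% and 52.9% in the U2OS lists. Over all peaks the own line came first in 143B as well (79.3% and 72.7%). The 143B shMETTL14 list was the longest, with 35195 peaks of all regions against 29992 in U2OS shMETTL14.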
